A study of Homo sapiens with 59 samples.

Results

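The 30 genes described here make cholesterol from acetyl units, control that pathway, handle sterols or, for GGPS1, lead away from the sterol branch. They were taken by symbol from the 60675 genes of a count table and placed by pathway step. HepG2 is an established line grown from a human hepatocellular carcinoma, and its cells were treated for 24 h before mRNA was sequenced from 59 libraries in 20 groups. The cells received wortmannin, a phosphoinositide kinase inhibitor, at 10 uM, or 1 of 6 plant extracts, or DMSO vehicle. Fresh ginger (Zingiberis Rhizoma Recens), dried ginger (Zingiberis Rhizoma), Scutellariae Radix, Pinelliae Tuber and Zizyphi Fructus were given at 20, 100 and 500 ug/mL. Coptidis Rhizoma was given at 8.4, 42 and 210 ug/mL. These are water extracts. Each group held 3 libraries except Pinelliae Tuber at 20 ug/mL, which held 2. The sample labels put DMSO at 0.1% in the vehicle, while the text on the series puts it at 2%. For treated groups no DMSO content is labelled, so a treatment and a difference in DMSO cannot be told apart in a comparison with vehicle. Nothing in the labels shows that replicates came from separate cultures. The p-values therefore take account only of spread among the libraries, and that spread may be technical.

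Cholesterol synthesis begins with acetyl-CoA, runs through mevalonate, the isoprenoid farnesyl diphosphate, squalene and lanosterol, and ends after a series of demethylations and reductions. SREBP2, the product of SREBF2, is a transcription factor held in the endoplasmic reticulum by SCAP and the INSIG proteins when sterols are plentiful. When sterols fall, SCAP escorts it to the Golgi, where the proteases encoded by MBTPS1 and MBTPS2 release the part that enters the nucleus and activates the pathway's genes. The liver is a main site of this synthesis in the body. Of the members, 8 act between acetyl-CoA and farnesyl or geranylgeranyl diphosphate, 3 between farnesyl diphosphate and lanosterol, and 10 between lanosterol and cholesterol. Another 6 control SREBP2, and 3 carry, bind or esterify sterols.

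SREBP2 acts through promoters, so the 250 bases before the transcription start were read. Promoters for 27 of the 30 members were matched by symbol in a RefSeq table of build GRCh38.p14, and those of ACAT2, FDFT1 and SQLE were not. The classical sterol regulatory element of the form TCACNCCAC, read on both strands, was in 1 of the 27, against 0.875% of 27305 promoters of the same length. CCAAT, the core of the NF-Y binding motif, was in 18 of 27 member promoters, against 33% of all. GGGCGG, the core of the Sp1 motif, was in 22 of 27, against 42.3% of all. The motifs were searched separately on both strands, so matches may overlap. These are letter matches only, and no match in this window says nothing about binding. The sequences below are 3 strongly lowered genes, the regulator itself, and a pair of control genes that did not fall in any comparison with vehicle, chosen after their values were seen. Capitals mark TCACNCCAC and CCAAT on either strand (CCAAT on the other strand reads ATTGG), and each sequence runs 5′ to 3′ towards the gene.
HMGCS1, chr5:43313413-43313662, strand -: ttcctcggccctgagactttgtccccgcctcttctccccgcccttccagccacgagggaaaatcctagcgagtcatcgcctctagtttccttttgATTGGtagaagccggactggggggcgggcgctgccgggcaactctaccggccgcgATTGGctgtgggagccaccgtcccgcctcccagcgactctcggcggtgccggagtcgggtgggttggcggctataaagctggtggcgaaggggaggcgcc
MVD, chr16:88663092-88663341, strand -: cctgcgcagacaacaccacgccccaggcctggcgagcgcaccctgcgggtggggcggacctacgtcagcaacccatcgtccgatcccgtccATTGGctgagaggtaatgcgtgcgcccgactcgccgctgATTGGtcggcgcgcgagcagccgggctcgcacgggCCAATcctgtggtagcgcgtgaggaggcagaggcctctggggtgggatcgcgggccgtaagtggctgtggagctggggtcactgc
TMEM97, chr17:28318950-28319199, strand +: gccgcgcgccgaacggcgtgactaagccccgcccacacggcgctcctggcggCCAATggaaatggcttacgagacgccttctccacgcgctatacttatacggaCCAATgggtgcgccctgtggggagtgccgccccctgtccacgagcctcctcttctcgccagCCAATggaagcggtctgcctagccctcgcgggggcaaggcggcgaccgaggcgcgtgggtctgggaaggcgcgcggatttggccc
SREBF2, chr22:41832855-41833104, strand +: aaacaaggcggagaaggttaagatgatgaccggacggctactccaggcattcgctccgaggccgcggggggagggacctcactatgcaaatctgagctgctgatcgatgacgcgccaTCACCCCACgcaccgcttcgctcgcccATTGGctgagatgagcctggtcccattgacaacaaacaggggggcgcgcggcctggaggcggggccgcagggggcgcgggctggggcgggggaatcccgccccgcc
INSIG2, chr2:118088221-118088470, strand +: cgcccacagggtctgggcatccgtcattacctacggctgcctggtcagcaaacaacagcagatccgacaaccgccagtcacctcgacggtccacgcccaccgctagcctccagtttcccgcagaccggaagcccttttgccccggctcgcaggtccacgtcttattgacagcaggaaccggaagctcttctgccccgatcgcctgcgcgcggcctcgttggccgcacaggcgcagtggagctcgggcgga
SCAP, chr3:47475942-47476191, strand -: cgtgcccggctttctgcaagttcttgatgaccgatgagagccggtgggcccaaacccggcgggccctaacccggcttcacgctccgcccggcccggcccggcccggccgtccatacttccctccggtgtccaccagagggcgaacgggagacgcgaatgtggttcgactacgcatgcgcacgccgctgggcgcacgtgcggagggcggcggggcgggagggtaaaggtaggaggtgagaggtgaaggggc
SREBF2 carried the one TCACNCCAC match, starting at position -133 from the transcription start, and 1 CCAAT match. HMGCS1 had 2 CCAAT matches, and MVD and TMEM97 had 3 each. INSIG2 and SCAP had 0. The matches did not go with the response in every gene: IDI1, CYP51A1, PMVK and LBR, which fell with Coptidis Rhizoma at 210 ug/mL (log2 changes of -2.44, -1.49, -0.89 and -0.94), also had 0 CCAAT matches. The start of each of these genes in GENCODE release 29 lies inside its window except that of SCAP, which lies upstream of it.

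The libraries held 21582593 to 31392071 counts. The hepatocyte genes ALB and AFP were abundant in each of them, with medians of 9932 and 3852 CPM (counts scaled to a common library size). Of the 12 markers of other cell types, PTPRC and CD3E (leukocytes) were at 0 in 58 of 59 libraries and KRT5 in 59. The exception in that list was LYZ, at 1005 to 2666 CPM, so that the list summed to 1061 to 2701 CPM. In each replicate pair the chi-square of the counts, divided by the number of genes, was at least 1.93, where sampling noise alone gives about 1. In 3 groups 1 library stood apart from its replicates, with values of 12.6 to 32.4. They were taken from earlier work on these data, with no fixed cut-off. These were replicate 1 of dried ginger at 500 ug/mL, replicate 3 of Pinelliae Tuber at 100 ug/mL, and the first replicate of Zizyphi Fructus at 20 ug/mL. Next was replicate 3 of Coptidis Rhizoma at 8.4 ug/mL, at 8.48 and 11.96 against its replicates, where the other pair had 3.42. With Zizyphi Fructus at 20 ug/mL the remaining pair, replicates 2 and 3, also differed, at 9.46. Genes were tested together in 1 edgeR quasi-likelihood model of all groups, with p-values adjusted by Benjamini and Hochberg's method over 16641 genes, and a gene was called where the adjusted p was under 0.05. Changes are log2 changes with their standard error (SE), and the median over all genes tested lay between -0.01 and 0.02 in each of the 29 comparisons. Rose and fell are used of called genes only. All 30 members passed the filter on low counts.

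Levels per exon length are given as TPM, which are counts over exon length scaled to the same total in every library. In vehicle cells, the most abundant member per exon length was HMGCS1, which makes hydroxymethylglutaryl-CoA, at 336 ± 14.3 TPM (SD, n = 3). SQLE and FDFT1, which act on either side of squalene, followed at 289 ± 4.21 and 289 ± 5.15, and MSMO1, a methylsterol oxidase, had 283 ± 5.94. These 3 did not differ beyond their spread. The control genes were lower than these top enzymes, with SREBF2 at 78.1 ± 1.23, INSIG2 at 61.7 ± 2.10 and SCAP at 50.9 ± 1.15 TPM. MBTPS1 had 44.7 ± 0.403 and MBTPS2 16.3 ± 0.960 TPM. Other enzymes lay in the same range, such as TM7SF2 at 61.5 ± 0.399 and MVK at 35.8 ± 0.860 TPM. INSIG1 was nearly silent in the table, with 1 to 10 counts in each of the 59 libraries and 0.300 ± 0.0474 TPM in vehicle cells. The reason for this near-0 level was not tested. Of the other 29, GGPS1 (geranylgeranyl diphosphate synthase) and HSD17B7 (a keto-sterol reductase) stood lowest after MBTPS2, at 23.9 ± 0.992 and 25.5 ± 0.637. HSD17B7 has a near copy, HSD17B7P2, with a mean of 138 counts a library, so its level is uncertain.

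**Figure D1:**
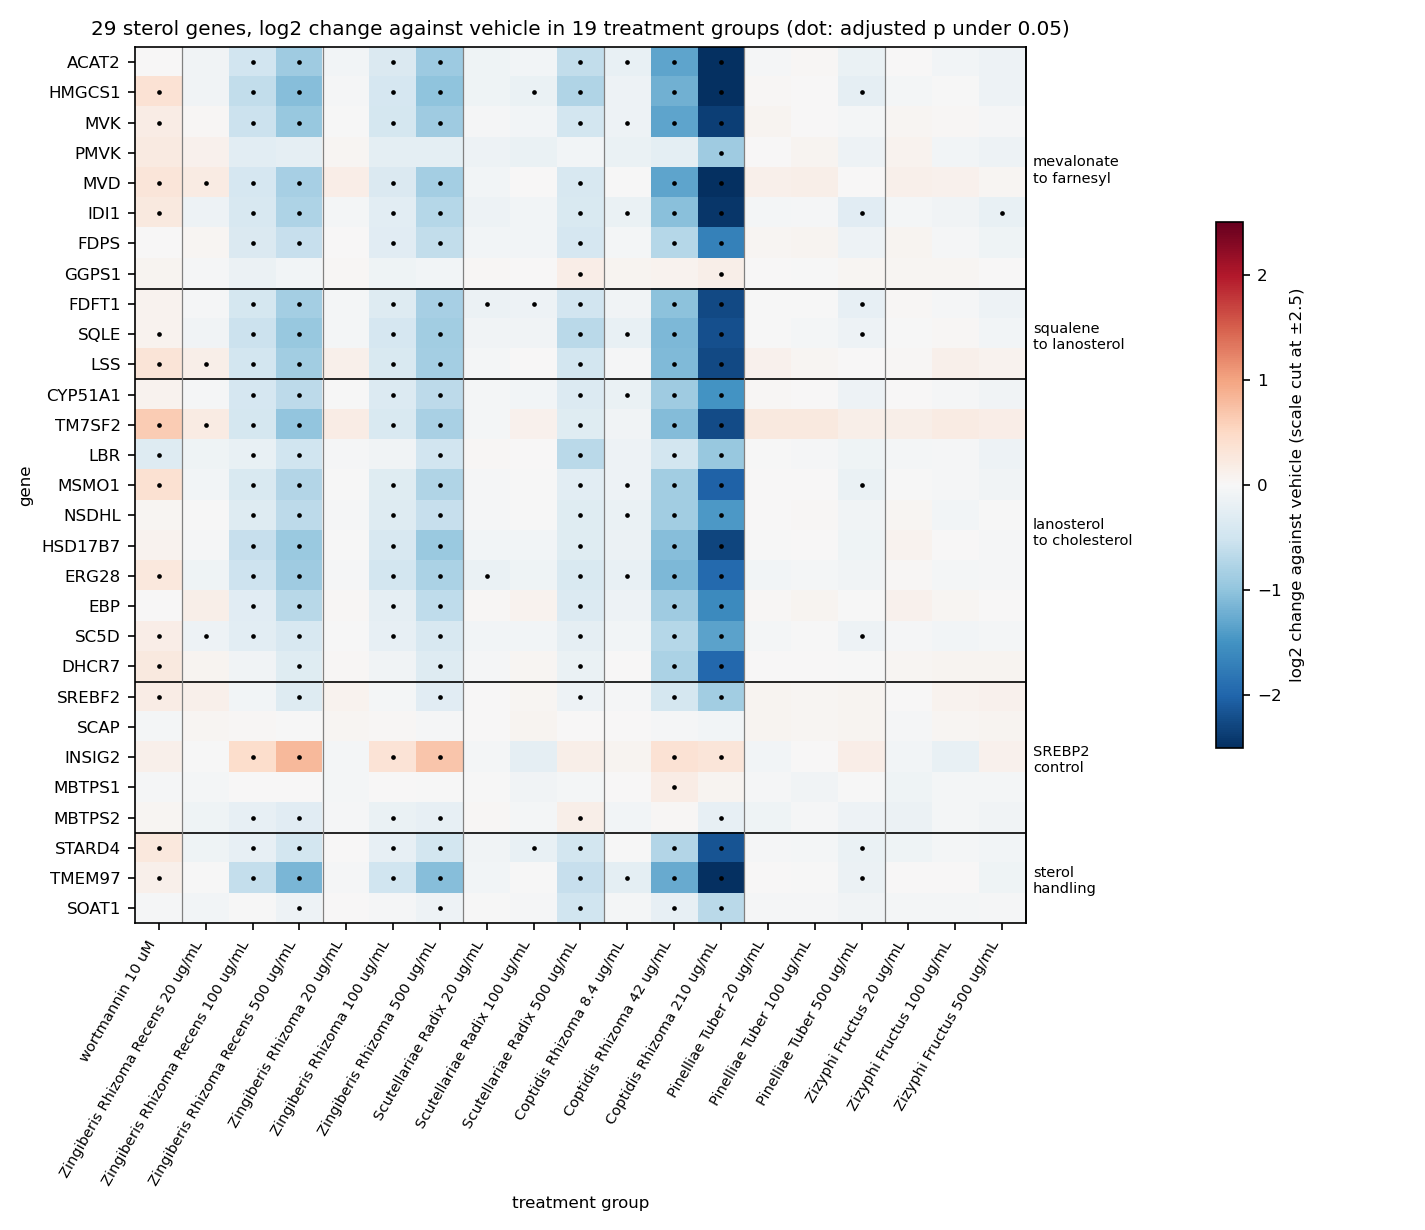
Log2 change against vehicle of 29 members (rows, by pathway step; INSIG1 is left out for its low counts) in 19 treatment groups (columns, doses low to high within an extract), with a dot where the adjusted p was under 0.05. The column of Coptidis Rhizoma at 210 ug/mL holds the lowest values, down to -2.96 for ACAT2, both ginger extracts at 500 ug/mL are lower in 24 members, and wortmannin is higher in 14.

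Coptidis Rhizoma at 210 ug/mL lowered nearly all of the pathway. Of the 30 members, 26 fell, against 34.5% of all genes tested, and 2 rose, against 34.8%. The members' median log2 change was -1.96, and 21 of them fell by 1 or more on the log2 scale, against 10.6% of all genes. Summed over the 30 members, expression was 1580 ± 19.7 CPM at 210 ug/mL and 4910 ± 5.69 CPM in vehicle (SD, n = 3 each). In bulk RNA, fewer cells of a type and less RNA per cell cannot be told apart. The 10 hepatocyte markers moved as well: 8 fell and 2 rose, and their sum was 18860 to 19340 CPM at 210 ug/mL and 27410 to 28150 CPM in vehicle. The markers of other cell types summed to 1061 to 1159 CPM at 210 ug/mL and 1422 to 1438 CPM in vehicle. Their part in the members' change was not tested.

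In the early steps, ACAT2 (ENSG00000120437, chr6:159760328-159779055, strand + of GRCh38), the thiolase that joins acetyl units, had the largest change of any member. It had 39.4, 33.7 and 36.4 CPM at 210 ug/mL, against 274, 288 and 289 CPM in vehicle. The 3 treated libraries lay far below the 3 vehicle libraries, at 12.9% of the vehicle mean (log2 change -2.96 ± 0.065, adjusted p = 1.47e-38). HMGCS1, MVK (mevalonate kinase), MVD (a decarboxylase) and IDI1 (an isomerase), which act on the way to the isoprenoid units, changed by -2.52, -2.35, -2.66 and -2.44. FDPS, which makes farnesyl diphosphate, changed by -1.69 and PMVK, the kinase between MVK and MVD, by -0.89. GGPS1, which takes farnesyl diphosphate away from the sterol branch, rose by 0.14 ± 0.057 (adjusted p = 0.0258). Its libraries held 29.9, 29.9 and 32.8 CPM at 210 ug/mL and 27.3, 28.8 and 27.8 CPM in vehicle, which is a narrow gap.

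All 3 genes of the squalene steps fell. LSS, which closes squalene epoxide into lanosterol, had 52.7, 50.6 and 50.6 CPM at 210 ug/mL, against 242, 246 and 252 CPM in vehicle. The groups did not overlap (log2 change -2.26 ± 0.045, adjusted p = 2.3e-40). FDFT1 (squalene synthase) changed by -2.25 ± 0.039 and SQLE (squalene epoxidase) by -2.20 ± 0.035.

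Each of the 10 genes from lanosterol to cholesterol fell. HSD17B7 had 8.17, 6.98 and 7.76 CPM at 210 ug/mL, against 38.4, 37.1 and 36.7 CPM in vehicle (log2 change -2.29 ± 0.065, adjusted p = 4.99e-34). The treated libraries were below every vehicle library by a wide margin. TM7SF2 and LBR encode reductases for the same sterol double bond, and LBR is also the lamin B receptor of the nuclear envelope. TM7SF2 changed by -2.24 ± 0.08 and LBR by -0.94 ± 0.045, and the difference between these genes was not tested. MSMO1 changed by -2.02, DHCR7 (the last reductase) by -1.97, ERG28 (known in yeast as a scaffold of the demethylation enzymes) by -1.95 and EBP (a sterol isomerase) by -1.60. CYP51A1 (lanosterol demethylase), NSDHL (a sterol dehydrogenase) and SC5D (a sterol desaturase) changed by -1.49, -1.44 and -1.33.

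Among the sterol handling genes, TMEM97 (ENSG00000109084, chr17:28319095-28328685, strand + of GRCh38), a sterol-responsive membrane protein, had 41.1, 38.7 and 40.0 CPM at 210 ug/mL, against 230.1, 231 and 228 CPM in vehicle (log2 change -2.52 ± 0.045, adjusted p = 1.32e-42). STARD4, a soluble sterol carrier, changed by -2.16 ± 0.051. SOAT1, which esterifies cholesterol for storage, changed less, by -0.68 ± 0.04.

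At 42 ug/mL, 24 of 30 members fell, against 23.5% of all genes, and 2 rose, against 23.4%, with a median of -0.88. A fall of 1 or more on the log2 scale was seen in 13 members, against 2.06% of all genes. The hepatocyte markers summed to 23620 to 24390 CPM at 42 ug/mL, with 6 of 10 lower and 3 higher. The markers of other cell types, mostly LYZ, summed to 2105 to 2331 CPM at 42 ug/mL and 1422 to 1438 CPM in vehicle, a move opposite to that at 210 ug/mL. The part of either list was not tested. MVK had 30.3, 27.4 and 28.1 CPM at 42 ug/mL and 72.0, 71.6 and 70.0 CPM in vehicle (log2 change -1.31 ± 0.052). SQLE had 180.0, 175 and 171 CPM at 42 ug/mL, against 391, 375 and 379.8 CPM in vehicle (log2 change -1.12 ± 0.033). ERG28 had 38.5, 39.6 and 36.3 CPM at 42 ug/mL and 81.1, 81.5 and 87.2 CPM in vehicle (log2 change -1.13 ± 0.05). TMEM97 had 99.2, 93.5 and 96.8 CPM at 42 ug/mL (log2 change -1.25 ± 0.042). None of these 4 genes overlapped between the groups.

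At 8.4 ug/mL, 9 members fell, against 7.39% of all genes, and 0 rose. Of the hepatocyte markers 5 of 10 fell and 1 rose, with a sum of 24740 to 26310 CPM at 8.4 ug/mL and 27410 to 28150 CPM in vehicle. The markers of other cell types summed to 1847 to 1967 CPM at 8.4 ug/mL and 1422 to 1438 CPM in vehicle. The part of either list was not tested. TMEM97 changed most, with 197, 189 and 195 CPM at 8.4 ug/mL and 230.1, 231 and 228 CPM in vehicle (log2 change -0.24 ± 0.04, adjusted p = 8.57e-06). ACAT2 had 248, 243 and 254 CPM at 8.4 ug/mL and 274, 288 and 289 CPM in vehicle (log2 change -0.19 ± 0.057). SQLE changed by -0.19 ± 0.033, with 335, 331 and 338 CPM at 8.4 ug/mL, and ERG28 by -0.20 ± 0.047, with 73.4, 71.2 and 73.5 CPM. IDI1, CYP51A1, NSDHL, MVK and MSMO1 were the others called. The count was 5 without vehicle replicate 2 or without replicate 2 of the 8.4 ug/mL group, 7 without its replicate 3, and 14 when the 3 libraries named above, which are in other groups, were left out of the model.

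Across the 3 doses of Coptidis Rhizoma, 23 members were lower in every library at each higher dose, against 14.7% of all genes. DHCR7 was not called at 8.4 ug/mL but was among these, with 216, 206 and 221 CPM at 8.4 ug/mL, 127, 123 and 118 CPM at 42 ug/mL and 53.7, 55.0 and 53.8 CPM at 210 ug/mL. Its vehicle libraries, at 208, 208 and 220.2 CPM, overlapped those at the lowest dose.

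**Figure D2:**
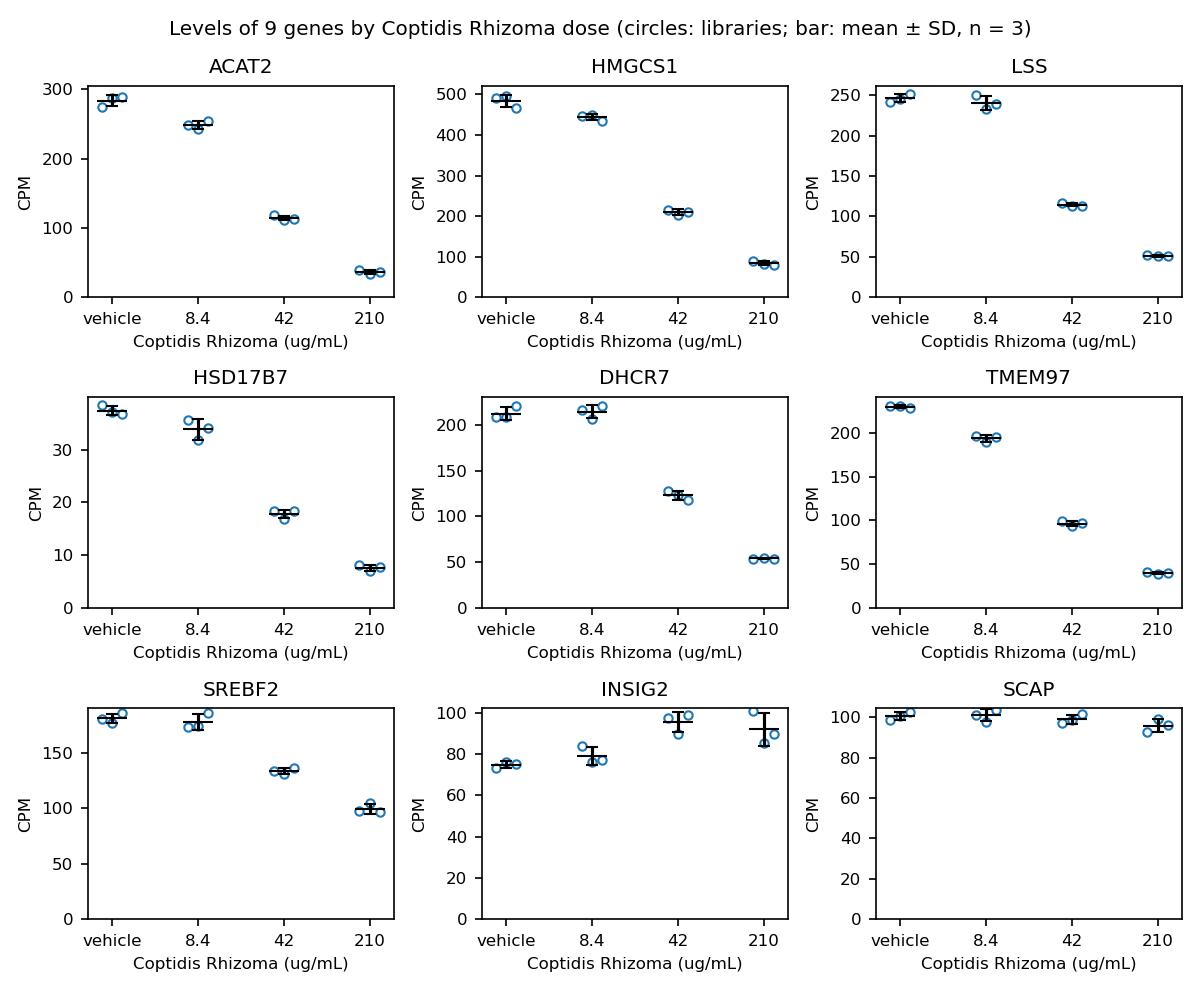
CPM of 9 members in vehicle and at 3 doses of Coptidis Rhizoma (circles are libraries, bars are mean ± SD, n = 3 a group, axes start at 0). ACAT2, HMGCS1, LSS, HSD17B7, DHCR7, TMEM97 and SREBF2 fall with dose, INSIG2 is higher at 42 and 210 ug/mL than in vehicle, and SCAP stays within 92.4 to 104 CPM.

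Both ginger extracts lowered most of the pathway. At 500 ug/mL, 24 members fell with fresh ginger, against 22.5% of all genes, and 1 rose, against 23.5%. With dried ginger 24 fell, against 20.9%, and 1 rose, against 21.5%. The median log2 change was -0.68 with fresh and -0.64 with dried ginger. The 30 members summed to 3132 ± 48.5 CPM with fresh ginger, 3170 ± 34.5 CPM with dried ginger and 4910 ± 5.69 CPM in vehicle (SD, n = 3 each). Of the 10 hepatocyte markers, 6 fell and 2 rose with fresh ginger, and 6 fell and 3 rose with dried ginger. The hepatocyte markers summed to 24460 to 24800 CPM with fresh ginger, 22970 to 25590 CPM with dried ginger and 27410 to 28150 CPM in vehicle. The markers of other cell types, nearly all of whose sum is LYZ, summed to 2445 to 2687 CPM with fresh ginger, 2646 to 2701 CPM with dried ginger and 1422 to 1438 CPM in vehicle. The part of either list was not tested.

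HMGCS1 had 246, 216 and 229.9 CPM with fresh ginger at 500 ug/mL and 251, 234 and 234 CPM with dried ginger, against 491, 495 and 467 CPM in vehicle. Both ginger groups lay below every vehicle library and overlapped each other (log2 change -1.07 ± 0.051 and -1.01 ± 0.051). SQLE had 205, 188 and 198 CPM with fresh and 216, 199 and 209 CPM with dried ginger, against 391, 375 and 379.8 CPM in vehicle (log2 change -0.95 ± 0.033 and -0.88 ± 0.033). TMEM97 had 112, 93.5 and 108 CPM with fresh and 117, 104 and 109.7 CPM with dried ginger, against 230.1, 231 and 228 CPM in vehicle. This was the largest fall of a member in either extract (log2 change -1.14 ± 0.041 and -1.06 ± 0.041, adjusted p = 2.11e-28 and 4.46e-27).

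Among the later steps, TM7SF2 had 31.2, 33.7 and 32.8 CPM with fresh ginger, against 64.4, 63.5 and 65.2 CPM in vehicle (log2 change -0.98 ± 0.071). With dried ginger TM7SF2 had 45.6, 29.9 and 34.6 CPM, and the highest of these came from replicate 1, which stood apart (log2 change -0.81 ± 0.07). HSD17B7 had 19.9, 20.1 and 19.0 CPM with fresh and 20.2, 19.3 and 19.8 CPM with dried ginger, against 38.4, 37.1 and 36.7 CPM in vehicle (log2 change -0.93 ± 0.057 and -0.92 ± 0.056). DHCR7 and SC5D changed least among these steps, by -0.31 and -0.39 with fresh and -0.32 and -0.40 with dried ginger. PMVK and GGPS1 were not called in either. Without the 3 libraries that stood apart, 25 members fell and 1 rose with dried ginger.

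INSIG2 (ENSG00000125629, chr2:118088452-118110997, strand + of GRCh38), whose product retains SCAP in the endoplasmic reticulum, moved the other way. It had 128, 135 and 128 CPM with fresh and 105, 129.9 and 126 CPM with dried ginger at 500 ug/mL, against 73.0, 76.2 and 75.2 CPM in vehicle. All ginger libraries were above all vehicle libraries (log2 change 0.80 ± 0.077 and 0.68 ± 0.077, adjusted p = 1.16e-12 and 1.56e-10). The lowest dried ginger library was again replicate 1.

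At 100 ug/mL, 22 members fell with fresh ginger, against 10.2% of all genes, and 1 rose, against 12.1%. With dried ginger 20 fell, against 7.75%, and 1 rose, against 9.76%. Of the 10 hepatocyte markers 3 fell and 3 rose with fresh ginger, and 2 fell and 2 rose with dried ginger. Their sums were 26590 to 28460 CPM with fresh ginger, 27530 to 27670 CPM with dried ginger and 27410 to 28150 CPM in vehicle. Those of other cell types summed to 2116 to 2237 CPM with fresh ginger, 2222 to 2236 CPM with dried ginger and 1422 to 1438 CPM in vehicle. The part of either list was not tested. The gene that rose was INSIG2 in both extracts, with 99.0, 101 and 103 CPM in fresh and 95.1, 94.1 and 93.5 CPM in dried ginger (log2 change 0.43 ± 0.077 and 0.33 ± 0.078). HMGCS1 had 325, 311 and 314 CPM with fresh and 379.9, 355 and 346 CPM with dried ginger (log2 change -0.61 ± 0.05 and -0.43 ± 0.05). At 20 ug/mL, fresh ginger raised 3 members, against 2.75% of all genes, and lowered 1, against 2.35%. These were MVD (0.20 ± 0.053), LSS (0.14 ± 0.041) and TM7SF2 (0.21 ± 0.066), which rose, and SC5D (-0.12 ± 0.036), which fell. No member was called without vehicle replicate 1, without vehicle replicate 2 or without replicate 3 of the fresh ginger group. Leaving out vehicle replicate 3 left 2 calls, and leaving out replicate 1 of the fresh ginger group left 1. Dried ginger at 20 ug/mL called 0 members in edgeR, against 0.0841% of all genes, with 4 at an unadjusted p under 0.05 and 0 called by DESeq2. In every library at each higher dose, 22 members were lower with fresh ginger, against 7.51% of all genes, and 24 with dried ginger, against 6.68%.

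Set directly against each other, fresh and dried ginger gave no call among the members. At 500 ug/mL edgeR called 0, against 1.83% of all genes, with 2 members at an unadjusted p under 0.05 and 0 called by DESeq2. Without replicate 2 of dried ginger at 500 ug/mL the count was 1. Leaving INSIG1 aside, the 95% intervals of the log2 difference, fresh minus dried, lay between -0.32 and 0.28 over 29 members. At 100 ug/mL edgeR called 0, against 0.379%, with 8 members at an unadjusted p under 0.05 and 2 called by DESeq2. Without replicate 3 of dried ginger at 100 ug/mL the count was 1. There the intervals lay between -0.29 and 0.25. Of all 30 members, INSIG1 included, 26 were lower with fresh than with dried ginger at 100 ug/mL, and 19 at 500 ug/mL. The matching share of all genes was not counted, and most members varied together. The largest such difference at 100 ug/mL, INSIG1 aside, was in HMGCS1, at -0.19 ± 0.051 (adjusted p = 0.106).

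Scutellariae Radix at 500 ug/mL also lowered most of the pathway. Of the members, 23 fell, against 25.5% of all genes, and 2 rose, against 24.7%, with a median of -0.34. The 30 members summed to 3701 ± 44.2 CPM with the extract and 4910 ± 5.69 CPM in vehicle (SD, n = 3 each). Of the 10 hepatocyte markers 9 fell and 0 rose, with a sum of 21070 to 21360 CPM at 500 ug/mL and 27410 to 28150 CPM in vehicle. Markers of other cell types summed to 1830 to 2010 CPM at 500 ug/mL and 1422 to 1438 CPM in vehicle, with 2 of 6 tested higher (ACTA2 and LYZ, 0.69 ± 0.054 and 0.42 ± 0.064) and 2 lower, COL1A1 among them (-1.84 ± 0.33). The part of either list was not tested. HMGCS1 had 289, 291 and 283 CPM with the extract, against 491, 495 and 467 CPM in vehicle, with no overlap (log2 change -0.75 ± 0.051). SQLE had 241, 243 and 237 CPM with the extract, against 391, 375 and 379.8 CPM in vehicle (log2 change -0.67 ± 0.033).

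Besides these, LBR, ACAT2, TMEM97 and SOAT1 were among the members with the larger changes. ACAT2 had 185 ± 2.67 CPM with the extract (SD, n = 3), 65.4% of its vehicle mean. LBR had 115, 114 and 112 CPM with Scutellariae Radix at 500 ug/mL, against 180.3, 186 and 177 CPM in vehicle, with a log2 change of -0.67 ± 0.045. TM7SF2, the other reductase of that step, changed by -0.31 ± 0.068, and the difference between these genes was not tested. SOAT1 had 53.6, 54.8 and 55.7 CPM with the extract, against 74.9, 76.0 and 79.6 CPM in vehicle (log2 change -0.49 ± 0.039). With fresh ginger at 500 ug/mL, SOAT1 changed by -0.13 ± 0.038. TMEM97 had 154, 156 and 154 CPM with Scutellariae Radix (log2 change -0.57 ± 0.04). MBTPS2 had 50.9, 50.0 and 47.8 CPM with the extract, against 43.9, 46.8 and 43.1 CPM in vehicle, a small rise (log2 change 0.15 ± 0.045, adjusted p = 0.00409). GGPS1 rose by 0.17 ± 0.057.

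At 100 ug/mL 3 members fell, against 7.34% of all genes: HMGCS1 (-0.16 ± 0.05), FDFT1 (-0.13 ± 0.036) and STARD4 (-0.18 ± 0.044). At 20 ug/mL 2 fell, against 2.17%, FDFT1 (-0.14 ± 0.036) and ERG28 (-0.17 ± 0.047). The share at 100 ug/mL is near the background. Without replicate 1 of the 20 ug/mL group no member was called there, and without vehicle replicate 1 or vehicle replicate 3 the count was 1. No member was lower in every library at each higher dose, against 3.98% of all genes.

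Wortmannin raised many members by small amounts. Of the 30, 14 rose, against 16.2% of all genes, and 1 fell, against 16.0%. The median was 0.11, and the members summed to 5494 ± 41.9 CPM with wortmannin and 4910 ± 5.69 CPM in vehicle (SD, n = 3 each). Of the hepatocyte markers, 8 of 10 rose and 0 fell, with a sum of 31920 to 32540 CPM with wortmannin and 27410 to 28150 CPM in vehicle. Markers of other cell types summed to 1785 to 1885 CPM with wortmannin and 1422 to 1438 CPM in vehicle, with LYZ higher (0.36 ± 0.064) and COL1A1 lower (-1.01 ± 0.29). The part of either list was not tested. TM7SF2 led, with 101, 98.7 and 101 CPM in wortmannin and 64.4, 63.5 and 65.2 CPM in vehicle, with no overlap (log2 change 0.64 ± 0.065, adjusted p = 2.14e-11). HMGCS1 had 623, 638 and 605 CPM in wortmannin, against 491, 495 and 467 CPM in vehicle (log2 change 0.36 ± 0.05). LSS had 309, 299 and 313 CPM in wortmannin, against 242, 246 and 252 CPM in vehicle (log2 change 0.32 ± 0.041). All wortmannin libraries were above all vehicle libraries in both genes.

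STARD4 had 121, 125 and 122 CPM in wortmannin and 102, 101 and 103 CPM in vehicle (log2 change 0.26 ± 0.043). SREBF2 had 208, 205 and 205 CPM in wortmannin and 180.3, 177 and 186 CPM in vehicle (log2 change 0.18 ± 0.039). Neither gene overlapped between the groups. MSMO1 rose by 0.37, MVD by 0.30, ERG28 by 0.27, IDI1 and DHCR7 by 0.25 and 0.25. The others that rose were MVK, SC5D, TMEM97 and SQLE. LBR was the 1 that fell, with 145, 150.1 and 142 CPM in wortmannin and 180.3, 186 and 177 CPM in vehicle (log2 change -0.31 ± 0.044, adjusted p = 1.01e-07). ACAT2 and FDPS, by contrast, had log2 changes of 0.00 ± 0.057 and 0.00 ± 0.043.

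Pinelliae Tuber and Zizyphi Fructus moved few members. Pinelliae Tuber at 500 ug/mL lowered 8, against 1.93% of all genes, with log2 changes of -0.28 (IDI1) to -0.13 (SQLE and SC5D). IDI1 changed by -0.28 ± 0.051, FDFT1 by -0.21 ± 0.036, MSMO1 by -0.17 ± 0.046 and STARD4 by -0.17 ± 0.044. HMGCS1 and TMEM97 were the others. The count was 2 without replicate 3 of the 500 ug/mL group, 4 without vehicle replicate 1, 5 without vehicle replicate 2 and 14 without the 3 libraries that stood apart. At 100 ug/mL 0 members were called in edgeR, against 0.204% of all genes, with 3 at an unadjusted p under 0.05 and 1 called by DESeq2. Without the library that stood apart in that group and the other 2, edgeR called 1 there. At 20 ug/mL 0 were called in edgeR, against 0.00601%, with 3 at an unadjusted p under 0.05 and 0 called by DESeq2.

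Zizyphi Fructus at 500 ug/mL lowered 1 member, against 1.53% of all genes, which was IDI1 (-0.19 ± 0.051, adjusted p = 0.027), a share near the background. That call was lost without vehicle replicate 1 or 2 and without replicate 2 or 3 of the 500 ug/mL group. At 100 ug/mL edgeR called 0, against 0.228%, with 6 at an unadjusted p under 0.05 and 0 called by DESeq2. At 20 ug/mL it called 0, against 1.99%, with 6 at an unadjusted p under 0.05 and 1 called by DESeq2. Leaving out replicate 3 of the 20 ug/mL group gave 4 calls there, and leaving out replicate 2, or the 3 libraries that stood apart, gave 1. No member was lower in every library at each higher dose with Pinelliae Tuber, against 0.312% of all genes, or with Zizyphi Fructus, against 0.397%.

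The control genes did not follow the enzymes as a group. SREBF2 itself (ENSG00000198911, chr22:41833079-41907308, strand + of GRCh38) was called in 6 of the 19 comparisons with vehicle, lower in 5 and higher in 1. It had 97.2, 105 and 96.9 CPM with Coptidis Rhizoma at 210 ug/mL, against 180.3, 177 and 186 CPM in vehicle, with no overlap (log2 change -0.86 ± 0.04, adjusted p = 6.63e-25). It changed by -0.44 ± 0.04 at 42 ug/mL, by -0.32 ± 0.039 and -0.29 ± 0.039 with fresh and dried ginger at 500 ug/mL, and by -0.12 ± 0.039 with Scutellariae Radix at 500 ug/mL. SCAP was called in 0 of the 19. It had 92.4, 99.1 and 95.9 CPM with Coptidis Rhizoma at 210 ug/mL and 98.8, 101 and 102 CPM in vehicle, which overlap (log2 change -0.07 ± 0.046).

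INSIG2 was higher in 6 comparisons and lower in 0. With Coptidis Rhizoma it had 101, 85.6 and 89.7 CPM at 210 ug/mL and 97.5, 89.8 and 99.1 CPM at 42 ug/mL, against 73.0, 76.2 and 75.2 CPM in vehicle (log2 change 0.30 ± 0.078 and 0.35 ± 0.078). These are smaller rises than with either ginger at 500 ug/mL, while the enzymes fell further, and the difference between extracts was not tested. MBTPS1 was called once, with 158, 162 and 158 CPM with Coptidis Rhizoma at 42 ug/mL, against 141, 138 and 143 CPM in vehicle (log2 change 0.18 ± 0.036). MBTPS2 was lower in 5 comparisons and higher in 1, by -0.28 ± 0.046 and -0.21 ± 0.046 with fresh and dried ginger at 500 ug/mL and -0.21 ± 0.046 with Coptidis Rhizoma at 210 ug/mL. INSIG1 was called lower in 3, but from very few counts. It summed to 5 counts over 3 libraries with Coptidis Rhizoma at 210 ug/mL, 8 at 42 ug/mL and 7 with fresh ginger at 100 ug/mL, against 26 in vehicle. The ratios to vehicle, scaled for library size, were 0.194 (95% exact Poisson interval 0.0581 to 0.513), 0.314 (0.123 to 0.715) and 0.287 (0.105 to 0.679). These intervals cover counting error only.

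**Figure D3:**
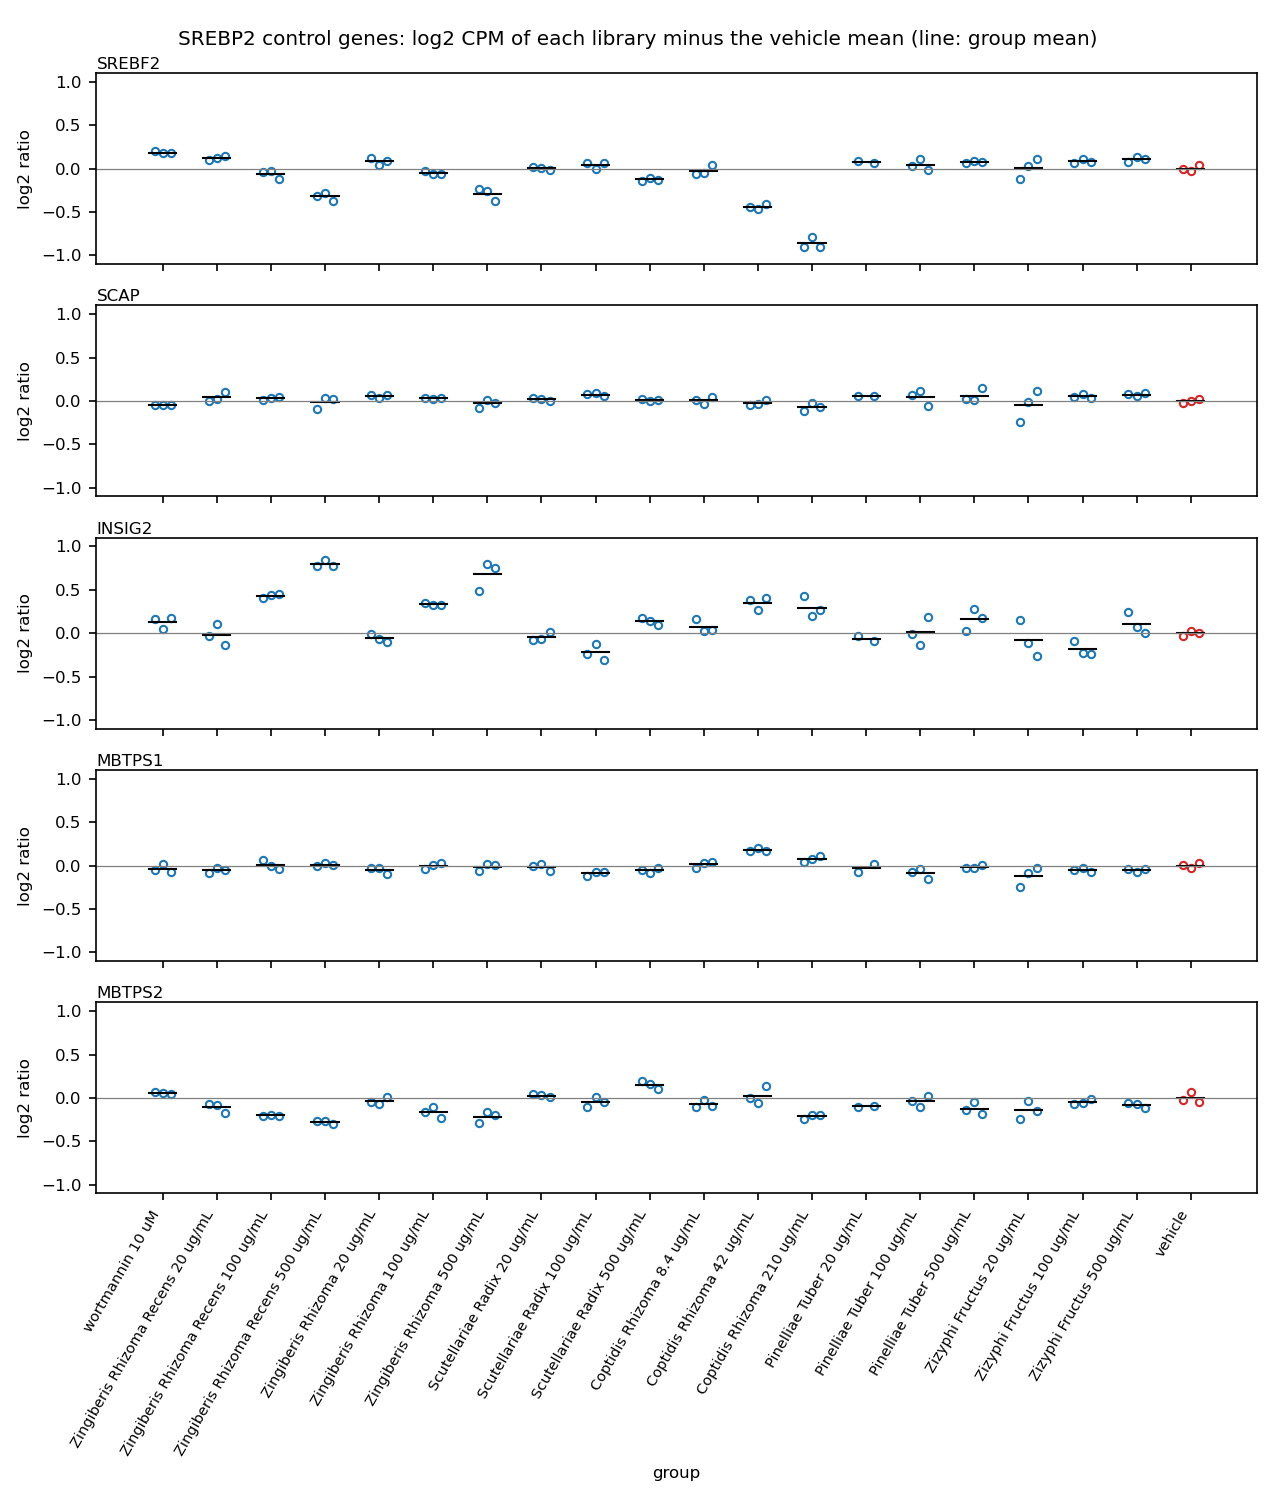
Log2 CPM of each library minus the vehicle mean for 5 genes that control SREBP2 (circles are libraries, lines are group means, vehicle is at the right). SREBF2 is lowest with Coptidis Rhizoma at 210 ug/mL, INSIG2 is highest with Zingiberis Rhizoma Recens and Zingiberis Rhizoma at 500 ug/mL, and SCAP and MBTPS1 keep close to the vehicle mean.

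All 59 libraries, vehicle and treated, carry the label batch A. The first number in the sample titles differs between extracts, and its meaning is not stated. Libraries of Coptidis Rhizoma and Zizyphi Fructus carry 4, those of Scutellariae Radix and Pinelliae Tuber 3, those of either ginger 2, and those of wortmannin 1. Vehicle libraries also carry 1, but with the letter A before it, which no treated library has. Vehicle and treated libraries therefore differ in this label too, and that cannot be told apart from treatment. Top doses were also compared with bottom doses of the same extract, which share this number and use no vehicle library. Coptidis Rhizoma at 210 against 8.4 ug/mL lowered 26 members, against 32.8% of all genes, and raised 1, INSIG2 (0.22 ± 0.078), against 33.0%. Without replicate 3 of the 8.4 ug/mL group 25 fell and 1 rose. Fresh ginger at 500 against 20 ug/mL lowered 24, against 23.6%, and raised 1, against 24.4%. Dried ginger lowered 24, against 20.1%, and raised 1, against 20.9%. The gene raised was INSIG2 in both extracts, by 0.82 ± 0.076 with fresh and 0.74 ± 0.077 with dried ginger.

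Scutellariae Radix at 500 against 20 ug/mL lowered 23, against 25.4%, and raised 2, against 24.5%, INSIG2 (0.19 ± 0.079) and MBTPS2 (0.13 ± 0.045). Pinelliae Tuber lowered 5, against 0.703%, of which HMGCS1 changed most (-0.26 ± 0.055). The count was 0 without replicate 3 of the 500 ug/mL group or replicate 1 of the 20 ug/mL group, 2 without replicate 3 of the 20 ug/mL group and 3 without replicate 1 of the 500 ug/mL group. Zizyphi Fructus lowered 2, against 2.82%, FDPS (-0.17 ± 0.043) and FDFT1 (-0.16 ± 0.036), a share near the background. Without replicate 1 of the 20 ug/mL group 0 fell and 1 rose, and without replicate 3 of that group 8 fell and 3 rose.

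The dose effects were also compared between extracts that share a title number. The top minus bottom dose effect of Coptidis Rhizoma was lower than that of Zizyphi Fructus in 26 members, against 28.2% of all genes, and in 25 without the 3 libraries that stood apart or without replicate 3 of Coptidis Rhizoma 8.4 ug/mL. ACAT2 changed by -2.76 ± 0.065 with Coptidis Rhizoma and -0.14 ± 0.057 with Zizyphi Fructus, a difference of -2.62 ± 0.086 (adjusted p = 1.45e-30). SREBF2 changed by -0.84 ± 0.04 with Coptidis Rhizoma and 0.09 ± 0.039 with Zizyphi Fructus, a difference of -0.93 ± 0.056. SCAP, called in no comparison with vehicle, differed by -0.19 ± 0.065 (adjusted p = 0.0124). It had 95.8 ± 3.33 and 101.0 ± 3.02 CPM with Coptidis Rhizoma at 210 and 8.4 ug/mL (SD, n = 3 each). With Zizyphi Fructus it had 105.9 ± 1.34 CPM at 500 ug/mL and 97.7 ± 12.2 CPM at 20 ug/mL. That last group holds a library that stood apart. The dose effect of Scutellariae Radix was lower than that of Pinelliae Tuber in 15 members, against 19.0% of all genes. LBR changed by -0.70 ± 0.045 with Scutellariae Radix and -0.11 ± 0.049 with Pinelliae Tuber, a difference of -0.59 ± 0.066 (adjusted p = 2.9e-10). SQLE, SOAT1 and HMGCS1 differed by -0.46, -0.44 and -0.38. Without replicate 3 of Pinelliae Tuber 20 ug/mL the count was 9. The doses in ug/mL differ between Coptidis Rhizoma and Zizyphi Fructus.

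**Figure D4:**
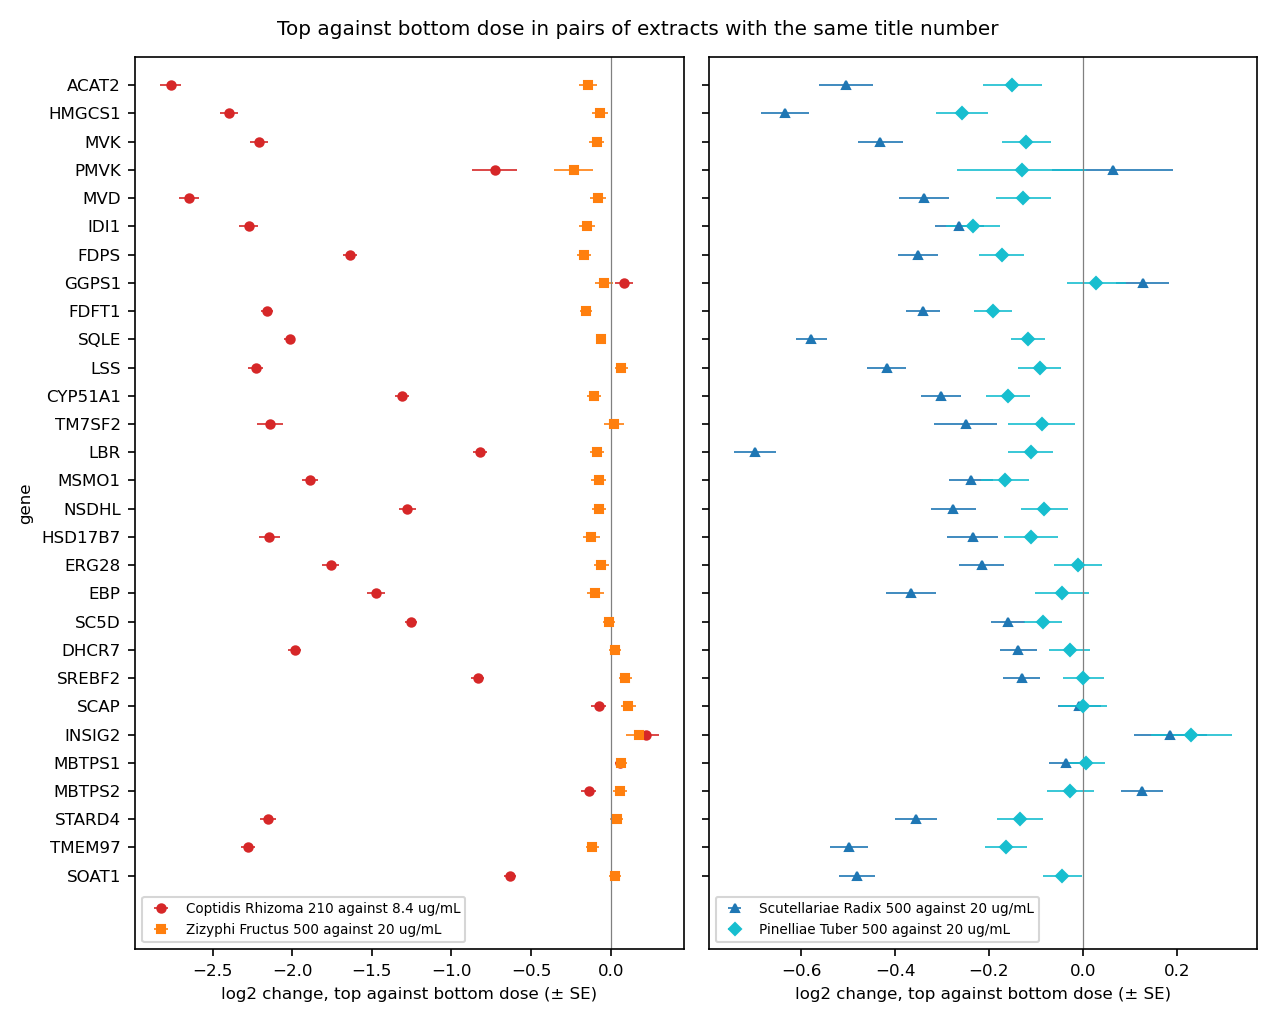
Log2 change of the top against the bottom dose (± SE) of 29 members in Coptidis Rhizoma and Zizyphi Fructus (left) and in Scutellariae Radix and Pinelliae Tuber (right, on a narrower axis). Coptidis Rhizoma points reach -2.76 (ACAT2) where Zizyphi Fructus points stay between -0.23 and 0.18, and Scutellariae Radix points reach -0.70 (LBR).

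Fatty acid synthesis genes, which SREBP1 and SREBP2 also control, moved with the sterol genes. Of 15 that passed the filter on low counts, 13 fell, against 34.5% of all genes, and 1 rose, against 34.8%, with Coptidis Rhizoma at 210 ug/mL, with a median of -1.13. The largest changes were in PNPLA3 (a lipase of lipid droplets, -3.06 ± 0.11), FADS2 (a fatty acid desaturase, -2.74 ± 0.056) and SCD (stearoyl-CoA desaturase, -2.02 ± 0.04). With fresh and dried ginger at 500 ug/mL 13 fell in each, against 22.5% and 20.9% of all genes, and 1 rose in each, against 23.5% and 21.5%. GPAM, which starts triglyceride synthesis, changed by -1.28 ± 0.049 with fresh ginger. With Scutellariae Radix at 500 ug/mL 12 fell, against 25.5%, and 1 rose, against 24.7%. Wortmannin raised 6, against 16.2%, and lowered 0, against 16.0%, led by ACSS2, which makes acetyl-CoA from acetate (0.57 ± 0.035).

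Genes of sterol efflux and its receptor LXR were mixed. With Coptidis Rhizoma at 210 ug/mL, 5 of 9 tested rose, against 34.8% of all genes, and 2 fell, against 34.5%. Those that rose included MYLIP (a ubiquitin ligase for lipoprotein receptors, 1.37 ± 0.11) and NR1H2 (an LXR gene, 0.93 ± 0.083). Of 8 tested genes of endosomal and membrane sterol transport, 5 rose and 1 fell, against the same background. With that treatment GRAMD1C and GRAMD1A, which move sterol between the plasma membrane and the endoplasmic reticulum, rose by 2.92 ± 0.38 and 1.39 ± 0.068, and LIPA, the lysosomal acid lipase, fell (-1.09 ± 0.043). GRAMD1C rests on few counts, at 0.917 ± 0.156 CPM at 210 ug/mL and 0.116 ± 0.0359 CPM in vehicle (SD, n = 3 each). Fresh ginger at 500 ug/mL raised GRAMD1A by 1.18 ± 0.069 and GRAMD1C by 1.65 ± 0.45. Of 10 genes for degradation of sterol regulators in the endoplasmic reticulum, 4 rose and 5 fell with Coptidis Rhizoma at 210 ug/mL, and of 10 genes of the isoprenoid branches 4 rose and 4 fell. These shares are near the background of 34.8% higher and 34.5% lower. The prenyltransferase subunits FNTB and FNTA changed by -1.07 ± 0.058 and 0.81 ± 0.052.

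Over the 20 group means, most members varied together. The Spearman correlation of a member with the mean of the other members was 0.98 for CYP51A1, 0.98 for HMGCS1 and 0.97 for ACAT2. It was 0.64 for LBR, 0.63 for SOAT1, 0.38 for MBTPS2, 0.32 for SCAP, -0.04 for GGPS1, -0.68 for MBTPS1 and -0.71 for INSIG2. These are descriptions of group means of log2(CPM + 1) and carry no test. Coptidis Rhizoma at 210 ug/mL was the lowest of the 20 groups for 26 of the 30 members. Among these, the group means of ACAT2 spanned 2.96 on that scale, those of SREBF2 1.04 and those of SCAP 0.14. Several members overlap a gene on the opposite strand in GENCODE 29, such as ACAT2 with TCP1 (397 bases), FDPS with RUSC1-AS1 (693), TMEM97 with IFT20 (361), MVK with MMAB (306), SREBF2 with SREBF2-AS1 (280) and GGPS1 with ARID4B (138), and no source used here gives the strand setting of the counting. Their values are uncertain to that extent.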

How the data were processed

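Per the labels, libraries were made with a directional MGI mRNA kit and read as 100-base pairs. The deposited table holds RSEM expected counts per gene, as the authors made them. The submitters' processing notes list STAR 2.7.3a, RSEM 1.3.3, Trim Galore 0.6.5, FastQC 0.11.9 and build GRCh38. No source used here gives the annotation or strand setting. Samples short of RNA were left out, per the series text. Of 267 columns, 59 matched this series and 208 were not used. Of nonzero values 24.4% were not whole, and all were rounded. Symbols came for 56558 identifiers and coordinates from GENCODE release 29 for 57055.

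One edgeR 4.0.16 model (limma 3.58.1, R 4.3.3) of 20 group means used filterByExpr, TMM scaling and the quasi-likelihood test, with Benjamini-Hochberg adjustment over 16641 genes and 39 residual degrees of freedom. The biological coefficient of variation was 4.41%. DESeq2 1.42.0 was an alternative. CPM use TMM library sizes. Total counts were 21582593 to 31392071 per library (median 25834177). TPM are counts over merged GENCODE exon length, scaled to the same total in every library, without TMM factors. Genes named with all libraries' values are, in each comparison, the called member of each step class with the largest change, and of other lists at most 3 called genes; a few more were named after their values were seen. The members and lists were chosen with earlier results of these data known.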

Additional observations from a re-analysis of the deposited data

Results flagged for a closer look

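The dose effect of Coptidis Rhizoma (210 minus 8.4 ug/mL) and that of Zizyphi Fructus (500 minus 20 ug/mL) differed in 26 members by edgeR's test of the difference between the dose effects. The log2 difference, Coptidis minus Zizyphi, was -2.62 for ACAT2, -2.30 for LSS, -2.16 for TM7SF2, -0.93 for SREBF2 and -2.19 for STARD4. The dose effect of Scutellariae Radix and that of Pinelliae Tuber, each 500 minus 20 ug/mL, differed in 15 members by the same test. The log2 difference, Scutellariae minus Pinelliae, was -0.38 for HMGCS1, -0.46 for SQLE, -0.59 for LBR and -0.44 for SOAT1.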

How the results depend on the processing

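No called change of a member reversed under any alternative run, and the counts for Coptidis Rhizoma at 210 and 42 ug/mL, both gingers at 500 and 100 ug/mL, Scutellariae Radix at 500 ug/mL and wortmannin kept within 1.5 times their reported values. Replicates share only a number: over 79 same-number pairs the correlation of deviations was -0.117 to 0.184 (median -0.002), and in 0 of 27 comparisons was every pair over 0.1.

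The counts of called members that moved by more than 1.5 times were small ones, and the cause was not tested. With DESeq2 they were 1 for Pinelliae Tuber 100, 5 for Scutellariae Radix 100, 3 for Zizyphi Fructus 500, 1 for Zizyphi Fructus 20, 8 for Pinelliae Tuber top against bottom, 4 for Zizyphi Fructus top against bottom and 2 for fresh against dried ginger at 100 ug/mL. RLE size factors gave 2 for Zizyphi Fructus 500. With a replicate block they were 3 for Zizyphi Fructus 500, 4 for Zizyphi Fructus top against bottom and 2 for fresh against dried ginger at 100, and the block moved no other count by over 1.5 times. With no filter they were 2 for fresh ginger 20, 2 for dried ginger 20, 1 for Pinelliae Tuber 100 and 20, 1 for Scutellariae Radix 20, 2 for Zizyphi Fructus 500 and 100, 8 and 5 for Pinelliae Tuber and Zizyphi Fructus top against bottom, and 1 for fresh against dried ginger at 100. Without the 3 libraries that stood apart they were 9 for fresh ginger 20, 1 for dried ginger 20, 14, 1 and 1 for Pinelliae Tuber 500, 100 and 20, 6 for Scutellariae Radix 100, 14 for Coptidis Rhizoma 8.4, 6, 2 and 1 for Zizyphi Fructus 500, 100 and 20, 10 and 1 for Pinelliae Tuber and Zizyphi Fructus top against bottom, and 2 for fresh against dried ginger at 100. In fits of only the groups compared they were 3 for dried ginger 20, 1 for Pinelliae Tuber 20, 6 and 4 for Scutellariae Radix 100 and 20, 10 and 3 for Zizyphi Fructus 500 and 100, 0 for Pinelliae Tuber and for Zizyphi Fructus top against bottom, and 1 for fresh against dried ginger at 100.

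Leaving out 1 library at a time gave 0 to 3 for fresh ginger 20, 2 to 12 for Pinelliae Tuber 500, 0 to 2 for Scutellariae Radix 20, 5 to 7 for Coptidis Rhizoma 8.4, 0 to 1 for Zizyphi Fructus 500, 0 to 4 for Zizyphi Fructus 20, 0 to 7 and 1 to 11 for Pinelliae Tuber and Zizyphi Fructus top against bottom, 0 to 1 for fresh against dried ginger at 500 and at 100, and 9 to 15 for Scutellariae Radix against Pinelliae Tuber. Leaving out 1 of the 2 Pinelliae Tuber 20 libraries left 1, which was assumed to vary like the other groups. INSIG1, with 1 to 10 counts a library, limits what depth allows for that gene alone.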
